A study of Dendrobaena veneta with 18 samples.

Results

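Earthworms were kept in soil with a low dose of carbamazepine. In their gut, 47 of 243619 assembled genes stood at least 3 times above every control and high dose gut library. Their choice also limited the difference between mean levels in the cerebral ganglion, where many of them were barely detected. The assembled genes are called features here, and the 47 are called the members. The species was Dendrobaena veneta, a soil-dwelling earthworm, and libraries were made from poly(A)-purified RNA. Control worms lived for 28 days at 15 °C in topsoil that had received methanol alone. Low dose worms lived in topsoil with 0.6 mg/kg carbamazepine and high dose worms in topsoil with 10 mg/kg, and spiked soil stood for 48 hours before use so that the solvent could evaporate. All worms were adults, were given no added food and were sampled for gut and for cerebral ganglion. Of 18 samples in 6 groups, 17 had a column of values: 2 control, 3 low dose and 3 high dose gut libraries, and 3 libraries in each ganglion group. Control gut 1 was not analysed here. The labels do not say whether replicates were separate animals or pools, so a p-value speaks of the spread between libraries, which may be technical.

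The gut of an earthworm takes up nutrients and dissolved chemicals from ingested soil, and the chloragogenous tissue around it has liver-like tasks in metabolism and detoxification. The cerebral ganglion is the nerve mass above the pharynx that serves as a brain. Carbamazepine is an anticonvulsant that blocks voltage-gated sodium channels, and in mammals it induces drug-metabolising enzymes. The files pair no feature with a gene name, so neither the role of a member nor the identity of the sampled tissue could be checked against known marker genes. Features are given by identifier without its assembler prefix. An assembler of short reads places transcripts that share sequence in 1 component, written as the identifier up to the last g and its number, and features of 1 component can be alleles, related genes or pieces of 1 gene.

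The members were chosen from their own values. Levels are in CPM, the count divided by the library total and scaled to the usual common total. A member had at least 5 CPM in each low dose gut library, and its lowest low dose value was at least 3 times its highest value in the 5 other gut libraries. Its mean in low dose ganglia, with 0.5 CPM added, was less than 2 times that of control and high dose ganglia. The difference of low dose from control or high dose gut is therefore a description and carries no test. The gut limits alone were met by 89 features, which is 0.537% of the 16563 features with at least 5 CPM in every low dose gut library, and 42 of these missed the ganglion limit. The same gut limits, applied to the high dose group, were met by 29 features (0.234% of those at 5 CPM or more in every high dose gut library), and applied to control by 32 (0.232%). With the ganglion limit as well, 12 features were left for the high dose and 20 for control. The control group has 2 gut libraries and the others 3, so the counts are not on equal terms.

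The animals behind these values may be fewer than the libraries, by matches read from the values. Low dose gut 1 and 3 differed by a mean chi-square of 2.32 per feature, where counting noise alone gives about 1 and low dose gut 1 and 2 gave 34.3, and they are averaged to 1 sample in every mean, SD and test below. Presence and absence of 2740 variable features matched libraries to 9 worms, 2 of them in each gut group, with low dose gut 1 and 3 in 1 worm and high dose gut 1 and 3 in another. These matches come from the values and not from the labels. Library totals ran from 12536754 to 18285270 counts, and a member had between 67 and 5489 counts in a low dose gut library. Features specific to gut, a set of 499 defined in high dose worms, held 24.4% to 26.0% of the counts in low dose gut and 30.7% to 52.4% in the other guts. That set has a limit of 20 CPM, and no member passed 16.1 CPM in a control or high dose gut library. No member could therefore be in the set, and their lack of overlap says nothing of this shift. The part of this shift in the result was not tested.

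Scaling moved many members relative to the limits. TMM factors, which correct library totals for composition, ran from 1.14 to 1.22 in low dose gut and from 0.681 to 1.04 in the other guts. By library totals the median log2 ratio of low dose to other gut, with 0.5 CPM added, was 0.38 over the 26972 features that reached 5 CPM in a gut library, and 3.06 over the members. After TMM scaling these medians were 0.01 and 2.79. All 47 members still had their lowest low dose value above their highest other gut value, by 1.75 times or more, but only 21 still met the gut limits, and 22 features met the whole rule.

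In low dose gut the members ranged from 5.21 to 290.0 CPM in their mean, with a median of 13.3 CPM. The median over members of the mean was 0.735 CPM in control gut and 1.19 CPM in high dose gut. Summed over the members, low dose gut 1, 2 and 3 stood at 1612, 1078 and 1638 CPM. Control gut 2 and 3 stood at 92.8 and 84.0 CPM, and high dose gut 1, 2 and 3 at 89.8, 74.1 and 104.3 CPM. The members thus took 0.161%, 0.108% and 0.164% of the counts in the low dose guts and 0.0104% or less in any other gut library. The 4 most abundant members held 48.1% of the summed low dose level. In bulk samples, more cells of a type and more RNA per cell cannot be told apart.

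**Figure D1:**
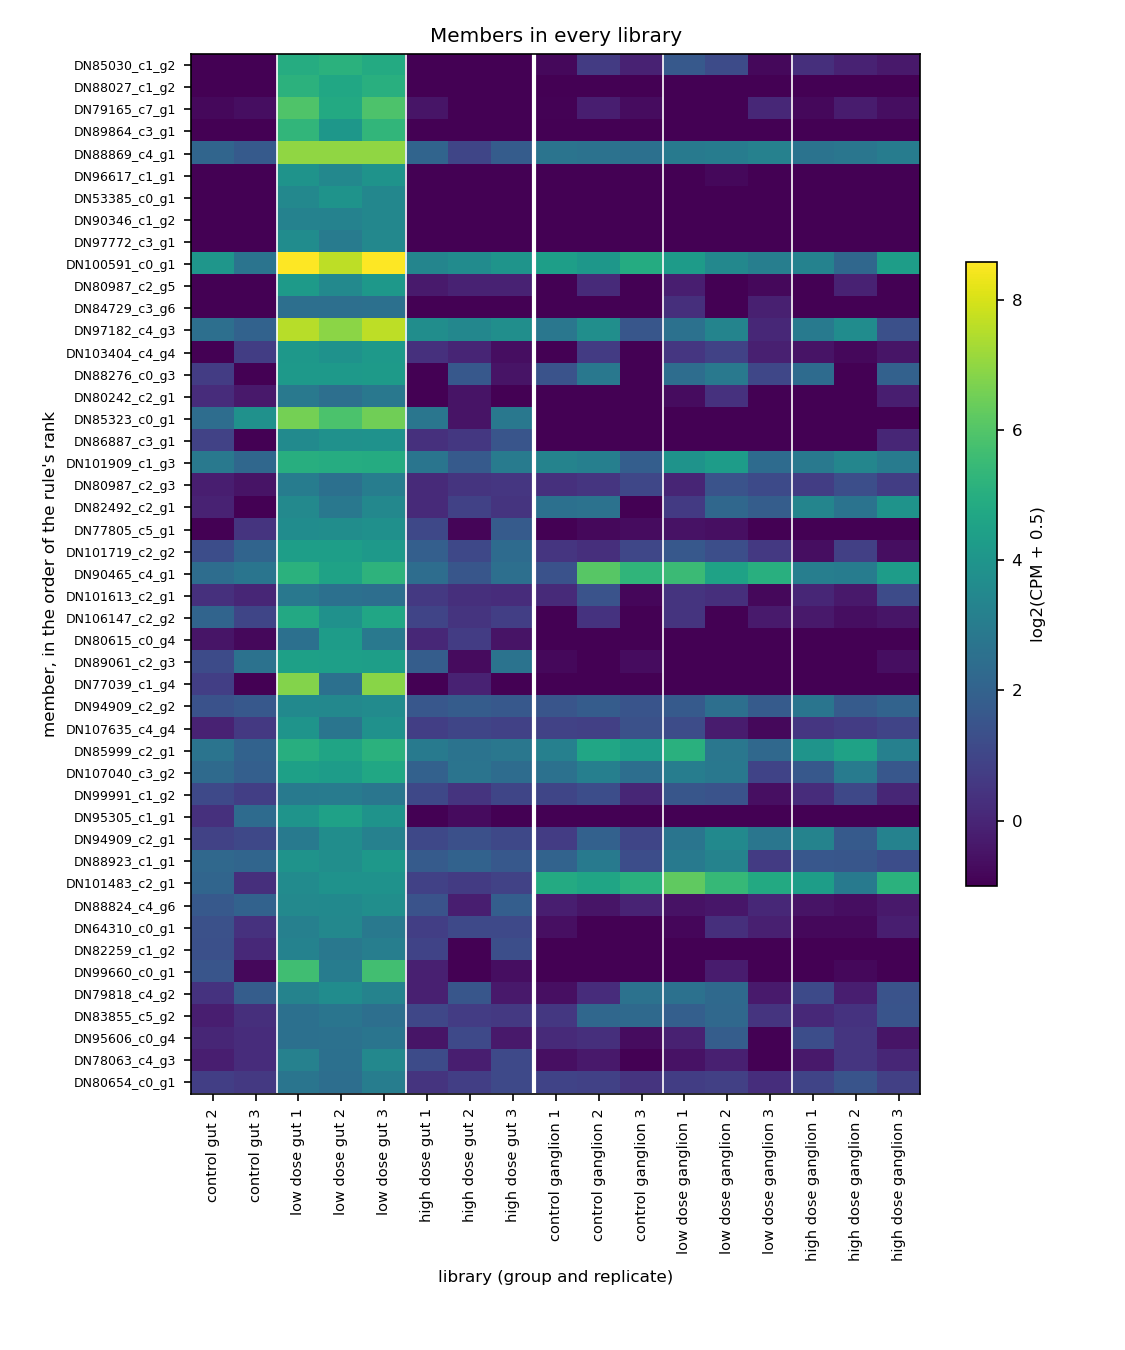
Level of each of the 47 members (rows, in the order of the ratio of the lowest low dose gut value to the highest other gut value plus 0.5 CPM) in each of 17 libraries (columns), as log2(CPM + 0.5). The 3 low dose gut columns are bright in all rows, by the choice of the members, while the ganglion columns run from 0 counts in all 9 libraries for 10 members to values above those of gut.

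**Figure D2:**
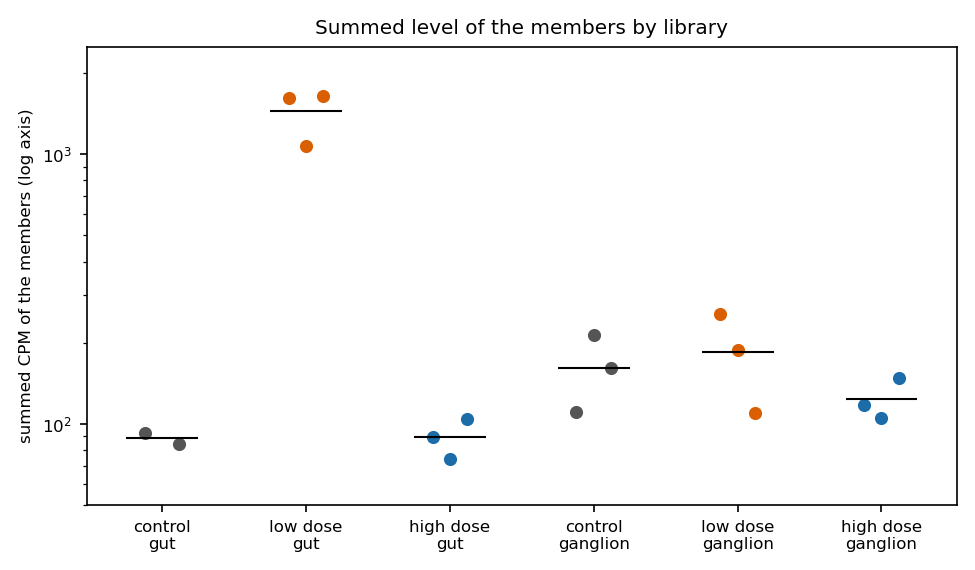
Summed CPM of the 47 members in each library on a log axis, with 1 point per library and a line at the mean of its libraries for each of 6 groups. Low dose gut lies between 1078 and 1638 CPM, the other guts between 74.1 and 104.3 CPM, and the ganglia between 104.8 and 255.9 CPM.

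A first set of members had no count in gut outside the low dose. In all 5 control and high dose gut libraries 7 members had 0 counts, and their low dose means ran from 5.21 to 31.8 CPM. Against a floor of 3 counts per library they were at least 24.7-fold to 151-fold higher in low dose gut. DN85030_c1_g2, first by the ratio that ranked the members, stood at 30.1, 34.3 and 28.5 CPM in low dose gut 1, 2 and 3 and at 0 in the other 5 guts. It was detected in every ganglion, with 0.0752 to 2.69 CPM in the ganglia. DN88027_c1_g2, second by rank, stood at 35.3, 25.9 and 32.2 CPM in low dose gut. It had 0 counts in all 14 other libraries, ganglia of the matched worms included. In all, 4 members had a count in no library outside low dose gut. A count of 0 for a member does not mean that its component was absent. The component of DN88027_c1_g2, summed, stood at 33.7 CPM in the lowest low dose gut and 12.2 CPM in the highest other gut. That of DN97772_c3_g1 stood at 15.8 and 9.75 CPM, and that of DN84729_c3_g6 at 6.71 and 2.85 CPM. That of DN85030_c1_g2 stood at 28.8 and 0.231 CPM. Those of DN53385_c0_g1, DN90346_c1_g2 and DN96617_c1_g1 were at 0 in the other guts.

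A larger set was present in other guts at a lower level. In each of the 5 other guts 11 members had at least 1 CPM, 12 stayed under 1 CPM in each, and 24 did so in some. The lowest low dose value was 3 to under 5 times the highest other gut value for 28 members and 5 to under 10 times for 6 members. It was 10 times or more for 6 members, and the 7 at 0 have no ratio. Of the members, 38 had a count in control gut, and the fold of the low dose mean over the control mean had a median of 8.47 over these.

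The most abundant members by CPM belonged to this second set. DN100591_c0_g1 stood at 376, 199.7 and 385 CPM in low dose gut 1, 2 and 3. It stood at 16.1 and 5.97 CPM in control gut 2 and 3, and at 9.72, 11.98 and 14.9 CPM in high dose gut. All 3 low dose values lie far above the other 5, which overlap between control and high dose. The low dose mean of 290.0 ± 127.7 CPM (SD, n = 2) was 26.3 times the control mean of 11.0 ± 7.145 (n = 2) and 23.8 times the high dose mean of 12.2 ± 2.62 (n = 3 libraries, from 2 worms by the matches). Its ganglion values ran from 4.07 to 29.6 CPM, below all low dose guts and partly above the other guts.

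DN97182_c4_g3 stood at 187, 119 and 199 CPM in low dose gut, at 5.18 and 3.57 CPM in control gut and at 12.6, 10.4 and 12.8 CPM in high dose gut. Here the high dose guts lie above both control guts and far below the low dose guts. Per length the order of the members was different. In FPKM, which divides by the length of the feature, the low dose mean was 249 for DN85030_c1_g2, the highest of the members, against 97.8 for DN100591_c0_g1 and 43.6 for DN97182_c4_g3.

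Members near the limits had smaller differences. DN78063_c4_g3, last but 1 by rank, stood at 8.87, 5.38 and 10.6 CPM in low dose gut and at no more than 1.77 CPM in another gut. DN80654_c0_g1, the last, stood at 6.13, 5.08 and 7.92 CPM and at no more than 1.66 CPM. Just outside the limit of 3 times lay DN105224_c1_g1, with a ratio of 2.98 and 14.1, 10.3 and 12.7 CPM in low dose gut, and DN84888_c1_g1, with a ratio of 2.96 and 10.02, 9.70 and 12.05 CPM. Of the members 13 had a ratio under 3.3, and 9 further features with a ratio of 2.7 or more missed that limit alone.

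The members varied between the low dose worms, as matched from the values. Low dose gut 3 over 1 ranged from 0.761 to 1.29 over the members, with a median of 0.997. Low dose gut 2 over the mean of 1 and 3 ranged from 0.0473 to 3.15, with a median of 0.832. It was under 0.5 for 5 of 47 members and above 2 for 1, where the shares over all 16563 features at 5 CPM or more in every low dose gut library were 5.98% and 2.96%, with a median of 0.997. In low dose gut 2, 26 members were lower than in both other libraries and 10 were higher.

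**Figure D3:**
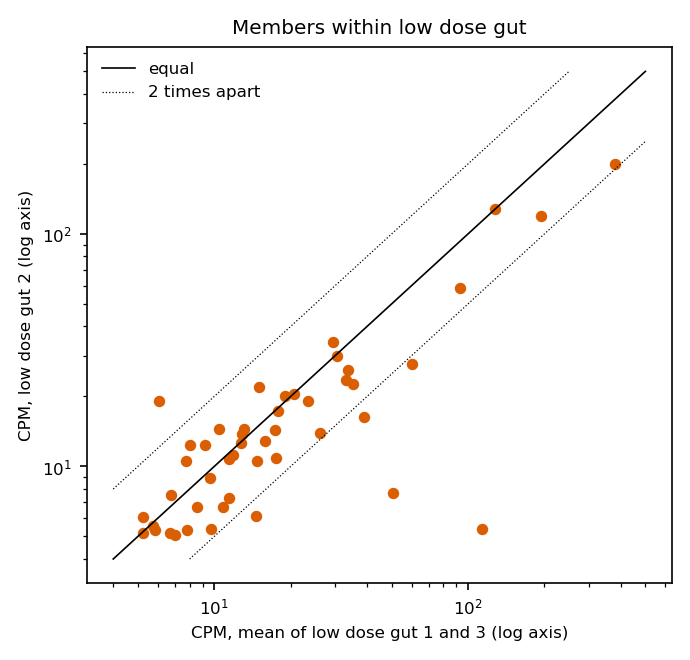
CPM of the 47 members in low dose gut 2 against the mean of low dose gut 1 and 3, both on log axes, with 1 point per member, a solid line at equality and dotted lines at 2 times apart. Most points lie between the dotted lines, 1 lies above the upper and 5 below the lower one, DN77039_c1_g4 and DN99660_c0_g1 the farthest.

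The extremes were large. DN77039_c1_g4 stood at 110.5 and 116.7 CPM in low dose gut 1 and 3 and at 5.38 CPM in low dose gut 2. DN99660_c0_g1 stood at 50.04 and 50.9 CPM against 7.65 CPM. In the other direction, DN80615_c0_g4 stood at 5.34 and 6.80 CPM in low dose gut 1 and 3 and at 19.1 CPM in low dose gut 2. DN94909_c2_g1 stood at 7.21 and 8.83 CPM against 12.4 CPM. The first pair of members thus rests mainly on 1 worm by the matches, with the second worm close to the limit of 5 CPM.

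How far a single worm, by the matches, sets the list was read from the values it holds. Without low dose gut 2 the rule found 362 features, and low dose gut 2 was itself at least 3 times above the other guts in 117 of these (32.3%) and did not rise above the highest of them in 126 (34.8%). With low dose gut 2 as the only low dose library it found 357, and both low dose gut 1 and 3 met the same limit in 115 of these (32.2%), while in 164 (45.9%) neither rose above the highest of the other guts. No share over all features stands beside these shares, so they are not read as high or low. Without control gut 2 the rule found 109 features and without high dose gut 2 it found 74. Leaving out low dose gut 1 or 3, which matched as 1 worm, gave 50 and 54.

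High dose and control gut were compared in a fit, and the rule sets no direction between them, since its limits treat both groups alike. The rule does use these values, because it holds every library of both groups at least 3 times below the lowest low dose value. A large rise in either group could keep a feature out, so the lack of calls is not independent of the choice of the members. No member differed between high dose and control gut at 0.05 after adjustment by the quasi-likelihood F test of edgeR. The fit covered 50071 features, of which 0.00599% were called higher and 0.0% lower. At an unadjusted p under 0.05 there were 5 members, and 3883 features in all. All 47 members entered this fit, but with the low dose libraries left out of the filter only 32 did. Of the members 22 had a higher mean in high dose gut, 18 a lower one, and 7 were at 0 in both.

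The members of smallest p in this comparison were both higher at the high dose. DN80987_c2_g5 was at 0 in control gut 2 and 3, at 0.308, 0.438 and 0.433 CPM in high dose gut, and at 18.2, 10.9 and 16.9 CPM in low dose gut. Its p was 0.00155 by the quasi-likelihood F test of edgeR, with an adjusted p = 0.339. It passed the filter on low counts only through the low dose libraries that chose it, so this p bears little weight. DN97182_c4_g3, whose values are given above, had a log2 fold of high dose over control of 1.49 (SE 0.29, adjusted p = 0.34). Over the alternatives its log2 fold ran from 0.97 to 1.58 and its adjusted p from 0.0138 to 1. DESeq2 called 1 member lower (2.13% of the members, background 0.711% with DESeq2), DN95305_c1_g1, which was chosen after its values were seen. Its adjusted p with edgeR was 0.401. It stood at 0.751 and 4.66 CPM in control gut, 15.3, 22.1 and 14.9 CPM in low dose gut, and 0, 0.109 and 0 CPM in high dose gut. Every high dose gut library lay above both control guts for 6 members (12.8%, background 8.79%) and below both for 4 (8.51%, background 9.6%), so these counts lie near those over all features with at least 1 CPM in a gut library.

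**Figure D4:**
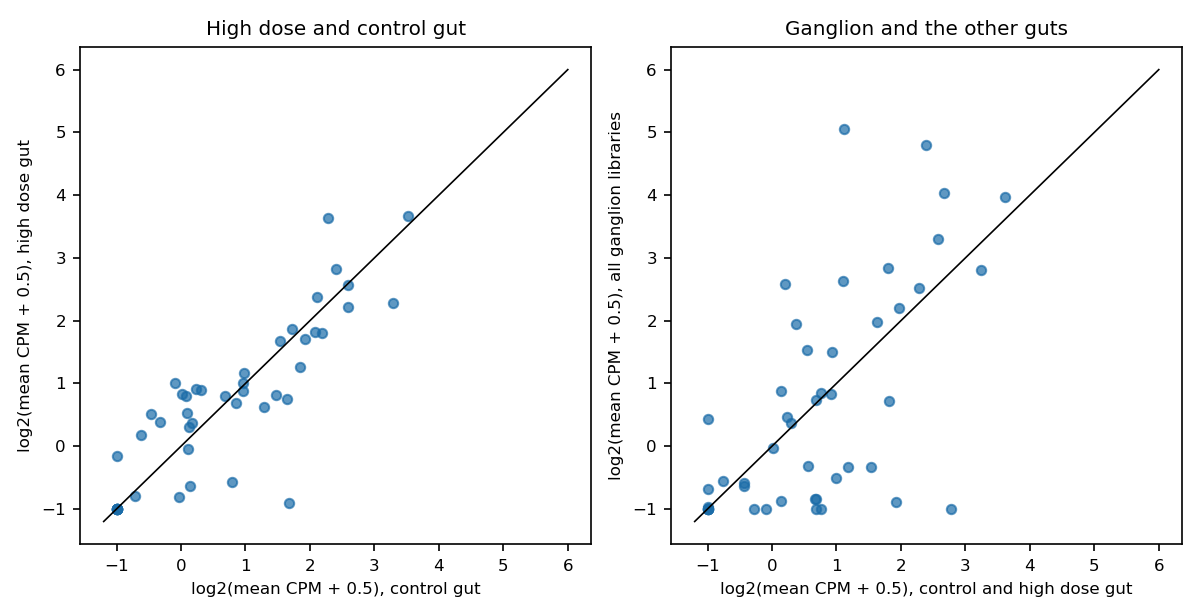
Each point is 1 of the 47 members and the line marks equality. The left panel sets log2(mean CPM + 0.5) in high dose gut against control gut, and the points scatter on both sides of the line. The right panel sets the mean of the 9 ganglion libraries against the mean of the 5 control and high dose gut libraries, and 23 members lie above the line.

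Outside low dose gut, the members did not belong to 1 tissue. In all 9 ganglion libraries 23 members stayed under 1 CPM, 10 had at least 1 CPM in each, and 14 lay between. The lowest low dose gut value was above all 14 other libraries for 42 members. The 5 exceptions were DN82492_c2_g1, DN90465_c4_g1, DN85999_c2_g1, DN94909_c2_g1 and DN101483_c2_g1, named after their values were seen, each of which had a ganglion library above its lowest low dose gut library.

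DN101483_c2_g1 was the member with the highest mean in the ganglion. It stood at 28.3, 24.2 and 33.6 CPM in control ganglia, 75.8, 42.4 and 27.5 CPM in low dose ganglia and 19.7, 7.25 and 34.3 CPM in high dose ganglia. In gut it stood at 3.83 and 0.728 CPM in control, 11.8, 14.5 and 14.3 CPM at the low dose and 1.31, 1.09 and 1.37 CPM at the high dose. The low dose guts lie above all other guts and below every ganglion but high dose ganglion 2. DN90465_c4_g1 stood at 2.18, 68.4 and 38.7 CPM in control ganglia, 46.1, 22.6 and 32.6 CPM in low dose ganglia and 8.15, 7.62 and 19.1 CPM in high dose ganglia. Its low dose guts, at 34.2, 22.6 and 35.9 CPM, lie in the range of the ganglia, and its other guts, at 2.46 to 6.19 CPM, below every ganglion but control ganglion 1.

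The tissues were tested in control worms and in high dose worms. The rule set no tissue difference in these worms, but it held their guts at least 3 times below low dose gut. Their ganglia had no such limit, so these tests are not independent of the choice of the members. In control worms 1 member was higher in the ganglion (2.13% of the members, background 9.74%) and 7 were higher in gut (14.9%, background 10.2%) by the quasi-likelihood F test of edgeR over 69689 features. In high dose worms 4 members were higher in the ganglion (8.51%, background 13.5%) and 8 in gut (17.02%, background 11.6%). All 47 members passed the filter on low counts in this fit, but only 28 did so on control libraries alone and 25 on high dose libraries alone, so nothing is read from the gap between these shares and the background. With high dose gut 1 and 3 averaged as 1 worm, the high dose counts were 2 in the ganglion and 5 in gut (background 7.65% and 7.62%). Leaving out 1 library gave 0 to 3 and 3 to 5 in control worms, lowest on both sides without control gut 3, and 1 to 4 and 3 to 7 in high dose worms.

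On the ganglion side, DN101483_c2_g1 had a log2 fold of ganglion over gut of 3.59 (SE 0.75, adjusted p = 0.00526) in control worms and 3.85 (SE 0.65, adjusted p = 0.00117) in high dose worms by the quasi-likelihood F test of edgeR. The control call was lost without control gut 3, with an adjusted p of 0.0666, the highest over its alternatives. High dose gut 1 and 3, matched as 1 worm, entered the high dose tests as 2 libraries. The high dose call of DN101483_c2_g1 was kept in all 18 alternatives, 1 of which averaged these libraries. DN88869_c4_g1 had a log2 fold of 1.08 (SE 0.30, adjusted p = 0.0182) in high dose worms, a call kept in 9 of 18 alternatives, with adjusted p up to 0.322. With gut and ganglion libraries of 1 worm blocked together the call was lost (log2 fold 0.98, adjusted p = 0.0716 by edgeR), and it was also lost without high dose ganglion 3, high dose gut 2 or high dose gut 3 (adjusted p 0.0679, 0.0628 and 0.067). It held 5.75, 6.22 and 7.55 CPM in high dose ganglia against 3.78, 1.53 and 2.96 CPM in high dose guts. Its low dose guts stood at 128.5, 127.8 and 126.6 CPM, far above both groups.

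On the gut side, DN85323_c0_g1 had 0 counts in all 9 ganglia. It stood at 4.88 and 13.8 CPM in control gut, 94.96, 58.3 and 90.5 CPM in low dose gut and 6.32, 0.219 and 6.57 CPM in high dose gut. The mean of control gut was at least 43.4-fold and that of high dose gut at least 19.8-fold above the ganglion floor of 3 counts per library, with edgeR adjusted p of 0.00649 and 0.00938. High dose gut 2 alone, at 0.219 CPM, did not exceed that floor of 0.220 CPM. The high dose fold therefore rests on high dose gut 1 and 3, 1 worm by the matches. Both calls held in the 17 alternatives that could be run for each, with adjusted p up to 0.0253 and 0.0491. On high dose libraries alone the member did not pass the filter on low counts, so that call was not tested without other groups. DN88824_c4_g6 stood at 2.704 and 3.49 CPM in control gut, 10.9, 11.2 and 12.9 CPM in low dose gut and 2.24, 0.383 and 3.10 CPM in high dose gut, and at no more than 0.541 CPM in a ganglion. The log2 fold between ganglion and gut came to -3.32 (SE 0.79, adjusted p = 0.0106) in control and -3.11 (SE 0.76, adjusted p = 0.0107) in high dose worms by the quasi-likelihood F test of edgeR, with adjusted p up to 0.0766 without control gut 3 and up to 0.0792 with limma on unfiltered FPKM. On high dose libraries alone this member did not pass the filter on low counts either.

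In the ganglion the rule kept the low dose mean below 2 times the others, and the ratio ran from 0.439 to 1.98 over the members, with a median of 1.04. It was above 1 for 26 members. In all 9 ganglia 23 members stayed under 1 CPM, where the added 0.5 CPM draws the ratio towards 1. DN84729_c3_g6, named after its values were seen, had 12, 0 and 5 counts in low dose ganglia 1, 2 and 3. It had 0 in every other ganglion. For no member were all 3 low dose ganglia above, or all 3 below, the 6 other ganglia. The limit on the ratio works against the first of these, and no share over all features stands beside them. Nothing is therefore read from these counts. The 42 features that missed the ganglion limit had ratios of 2.04 to 27.0. Low dose ganglia 1 and 2 came, by the matches, from the worms of the low dose guts, and low dose ganglion 3 had no gut partner. Of the 24 members with at least 1 CPM in a ganglion library, 18 (75.0%) were higher in both matched ganglia than in the unmatched one. The share of all such features was 42.0%. Lower in both was 1 member (4.17%), where 25.1% of all such features were. The guts of these matched worms chose the members, and the rule also used the low dose ganglion means. Nothing is therefore read from the gap between these shares. Summed over the members, low dose ganglia 1, 2 and 3 stood at 255.9, 187.8 and 110.1 CPM, and the other ganglia ranged from 104.8 to 213 CPM, which spans all but the first.

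High dose and control ganglia did not differ in any member by the quasi-likelihood F test of edgeR at an adjusted p under 0.05, over 48132 features of which 0.0% were called in either direction. The filter passed 24 members, 1 of which had an unadjusted p under 0.05, and 1780 features in all had one. DESeq2 also called no member. The smallest p was that of DN94909_c2_g1, at 1.13, 3.47 and 1.51 CPM in control and 9.39, 2.81 and 9.09 CPM in high dose ganglia, where the groups overlap (log2 fold 1.86, SE 0.67, adjusted p = 1 by the quasi-likelihood F test of edgeR). DN90465_c4_g1 came second, and its log2 fold was -1.69 (SE 0.96, adjusted p = 1). The groups did not overlap for 1 member, higher at the high dose (background 4.03%), and for 0 members in the other direction (background 2.66%). The effect of the high dose was also compared between tissues. No member passed an adjusted p under 0.05 by the quasi-likelihood F test of edgeR (background 0.00143% higher and 0.0% lower in the ganglion than in gut), none had an unadjusted p under 0.05, and DESeq2 called none. The smallest p values were those of DN80242_c2_g1 and DN83855_c5_g2, both with an adjusted p = 0.9999.

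Many members had a short implied length. The length implied by counts and FPKM, taken in the library with most counts and with the column sum as the total, ranged from 129.9 to 6353 bases, with a median of 892 bases. It was under 500 bases for 15 members (31.9%), against 7.11% of the features at 5 CPM or more in every low dose gut library, whose median was 1937 bases. Over those features it fell as low as 3.56 bases, so it is not a measured length of a transcript.

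The 47 members lay in 45 components. Only 2 components held more than 1 member. In DN94909_c2, which has no other feature, DN94909_c2_g1 and DN94909_c2_g2 stood at 12.4 and 10.8 CPM in low dose gut 2, and at 1.35 to 2.02 and 2.18 to 2.95 CPM in the other guts. In DN80987_c2, DN80987_c2_g5 and DN80987_c2_g3 stood at 10.9 and 5.31 CPM in low dose gut 2, and at no more than 0.438 and 0.938 CPM in the other guts. Members of 1 component share sequence and are not independent.

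In 34 of the components there were also features that are not members, 133 in all, here called mates. Only 21 mates reached 5 CPM in a gut library. None of the 133 met the low dose gut limits. Over the 21, the median log2 ratio of low dose to other gut was 0.56, against 0.38 over all 26972 features at that level. It was above 1 for 7 mates (33.3%, against 14.2% of all) and under -1 for 4 (19.05%, against 6.54%). None met the mirrored limits for a low level in low dose gut, which 13 features of the series met. The 2 mates nearest to them were DN79818_c4_g1, at 8.72, 10.7 and 8.27 CPM in low dose gut and 8.48 to 15.4 CPM in the others, and DN107040_c3_g3, at 7.86, 7.502 and 5.61 CPM and 5.17 to 21.9 CPM. Both overlap between the groups.

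With members and mates summed, 17 of the 34 components still stood at least 3 times higher in the lowest low dose gut than in the highest other gut. A smaller difference without overlap was left in 15, and the groups overlapped in 2. The authors' counting may divide reads between features of 1 component, so the level of the 35 members with mates is less certain than that of the rest. Of the member values 98.5% were whole counts, against 99.5% of all values, and a division of reads was not tested.

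**Figure D5:**
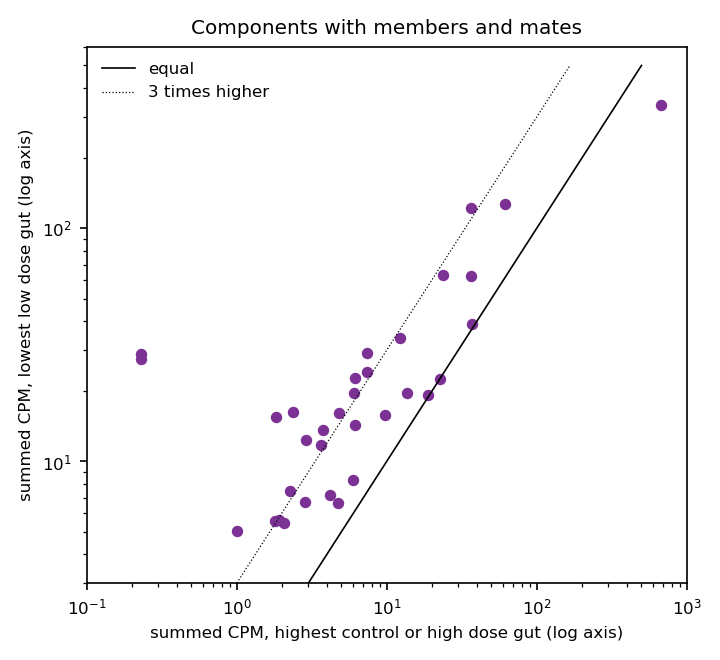
Summed CPM of members and mates in the lowest low dose gut library against the highest control or high dose gut library, both on log axes, with 1 point for each of the 33 components with a mate and a count in another gut. Points on or above the dotted line, 3 times higher, keep the limit, and 2 points lie below the solid line of equality.

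A pair of mates, chosen after their values were seen, was present in some gut libraries and absent in others. DN88869_c4_g3 had 0 counts in all low dose guts, 29.0 CPM in control gut 2, 0 in control gut 3, 30.9 and 56.8 CPM in high dose gut 1 and 3, and 0 in high dose gut 2. Its component is that of DN88869_c4_g1, which stood at 1.53 to 3.83 CPM in those 5 guts and at 126.6 CPM or more in low dose gut. Summed, this component stood at 127.0 to 128.6 CPM in low dose gut and at 33.3, 2.84, 35.6, 1.53 and 61.4 CPM in control gut 2 and 3 and high dose gut 1, 2 and 3. The lowest low dose sum was 2.07 times the highest other sum. DN97182_c4_g5 likewise had 0 counts in low dose gut and in control gut 2, 10.3 CPM in control gut 3, and 10.0, 0.219 and 18.1 CPM in high dose gut 1, 2 and 3. Both mates had 0.148 CPM or less in the ganglia.

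Outside the rule, the features whose log2(CPM + 0.5) over all 17 libraries was most like the mean of the members were DN82253_c2_g2 and DN92754_c0_g2, each with a correlation of 0.99. They stood at 2.96, 2.58 and 2.73 CPM and at 1.23, 1.06 and 1.12 CPM in low dose gut 1, 2 and 3, below the limit of 5 CPM. The first had 1 count in the other 14 libraries and the second had 0. The 17 points share the low dose gut libraries that chose the members.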

How the data were processed

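Poly(A)-purified RNA of gut and cerebral ganglion was sequenced, per the labels, and identifiers in the files are those of a Trinity assembly. CASAVA and DESeq2 are named, without versions, per the submitters' processing notes. The counting program and its filters are not given in these sources. Deposited were the authors' expected counts (estimated counts per assembled gene, not scaled) and FPKM values (scaled to length and library by the authors). The members, comparisons and naming rule were chosen with earlier results of these data known. CPM are counts over the column sum.

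Counts were rounded and tested with edgeR 4.0.16 (quasi-likelihood F test, two-sided, TMM factors, minimum count 10 and total 15) in R 4.3.3, with 1 coefficient per group and Benjamini-Hochberg adjustment over all features kept, at 0.05. Low dose gut 1 and 3 were averaged. High dose gut 1 and 3, also matched as 1 worm, stayed separate in the main fits and were averaged in an alternative. Fits ran on 7 gut, 9 ganglion and 16 libraries in all, with 4, 6 and 10 residual degrees of freedom. The spread between libraries beyond counting noise was 64.1%, 79.3% and 82.7% in these fits, as the coefficient of variation. The same tests were run on simulated counts with a smaller spread and no libraries from 1 worm. That run does not tell how the tests perform on these data. Alternatives were DESeq2 1.42.0, limma 3.58.1 on log2(FPKM + 1) or log2(FPKM + 0.1), other scaling, filters and groups, and leaving out libraries. Libraries matched at a presence correlation above 0.6 were taken as 1 worm, and a block for worm was an alternative between tissues. Correlations of deviations between same-numbered libraries were 0.185, 0.194 and 0.222 for control and high dose ganglia, and lower between other groups. No pairing entered the main fits, and a block for replicate number was an alternative. Named are the first and last members by rank, the highest in low dose gut and in the ganglion, the extremes within low dose gut and the smallest p per contrast, 2 at each end. Library totals limit precision, and floors of 3 counts cover counting error only.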

Additional observations from a re-analysis of the deposited data

How the results depend on the processing

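The number of members was 22 with TMM-scaled totals (21 of them shared with the 47) and 126 with FPKM in place of CPM (37 shared). It was 140 with a limit of 2 times, 19 with 5 times, 220 with a floor of 1 CPM, 11 with 20 CPM and 89 without the ganglion limit. Leaving out 1 gut library gave 47 to 362. Chosen after seeing the data, low dose gut 2 alone gave 357, and libraries matched as 1 worm, averaged, gave 56. For high dose against control gut, 0 members were called in most settings, but DESeq2 called 1 lower (2.13% of members, background 0.711%) and edgeR with no filter called 2 higher (4.26%, background 1.06%) and 3 lower (6.38%, background 1.15%). The other counts of 0, for the ganglion and for the difference between tissues, held in all settings run.

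In control worms, members higher in the ganglion numbered 4 with DESeq2 (background 13.9%), 4 with no filter (background 3.9%) and 2 with limma on log2(FPKM + 0.1) (background 5.17%), against 1. Those higher in gut numbered 11 with no filter (background 4.58%) and 4 with only the groups compared (background 10.7%), against 7. In high dose worms, members higher in the ganglion numbered 2 with high dose gut 1 and 3 averaged (background 7.65%) and 2 with only the groups compared (background 21.2%), against 4. Those higher in gut numbered 5 with that averaging (background 7.62%), 3 with only the groups compared (background 17.4%), and 2 with limma on log2(FPKM + 1), filtered or not (background 4.5% and 3.19%), against 8. Leaving out a library gave 0 to 3 and 3 to 5 in control worms, and 1 to 4 and 3 to 7 in high dose worms. The replicate block gave same-numbered libraries of all groups 1 shared term, in both tissues, with low dose gut 1 and 3 kept separate. These numbers do not follow the matched worms, since control gut 2 matched control ganglion 1. With this block 0 members were called between high dose and control in gut or ganglion. Between tissues 1 and 5 were called in control and 4 and 7 in high dose worms, so no count moved by over 1.5 times. With a block for matched worms the counts were 1 and 9 in control worms (background 11.8% and 12.7%) and 3 and 9 in high dose worms (background 15.6% and 13.2%). The cause of these shifts was not tested.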
